A study of Mus musculus with 12 samples.

Results

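The genes described here are 10 brakes and sensors of the cell cycle in mouse thymus: the cyclin-dependent kinase (CDK) inhibitors Cdkn1a, Cdkn1b, Cdkn2a, Cdkn2b, Cdkn2c and Cdkn2d, and Trp53, Mdm2, Ccng1 and Trp53inp1 of the p53 pathway. They were chosen by name, from 51826 genes in the files, and all 10 were measured and passed the filter on low counts in every comparison. The study set T cell acute lymphoblastic leukemias against healthy thymus by sequencing polyadenylated RNA. Of 12 libraries, 9 came from leukemic thymus of F5 mice in which tetracycline switches on Il7r, the gene of the interleukin-7 receptor alpha chain, and whose titles add that Il7r was induced with Dox, and 3 came from healthy control thymus of F5 mice. The labels do not give the promoter or cell type that drives the inducible gene, the age of the mice, the time on the inducer, or whether controls carried any part of the transgene or received the inducer. The labels place all 9 tumors in 1 group, and the division into tumors 1 to 6 and tumors 7 to 9 used below follows a known difference in library composition, described before the values. Separate animals are not stated either, and the p-values therefore reflect sample-to-sample spread that may in part be technical.

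p53, the protein of Trp53, is a transcription factor that is kept scarce by the ubiquitin ligase Mdm2 and accumulates after DNA damage or oncogene activity. It then induces genes that stop division or promote cell death, and among them Mdm2 itself, Cdkn1a, Ccng1 and Trp53inp1. CDK inhibitors of the Cip/Kip family (Cdkn1a, encoding p21, and Cdkn1b, encoding p27) bind cyclin-CDK complexes, while the INK4 proteins (products of Cdkn2a, Cdkn2b, Cdkn2c and Cdkn2d) bind Cdk4 and Cdk6 and keep the retinoblastoma protein active. Cdkn2a also encodes Arf, which blocks Mdm2, and loss of Cdkn2a is a common lesion of human T cell leukemia.

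In tumors 1 to 6 the 10 genes formed 2 tiers. Mdm2, Trp53inp1, Cdkn1b, Cdkn2c, Trp53 and Ccng1 had median levels of 1.72 to 5.14 TPM (the deposited unit, which scales counts by transcript length and by library), while Cdkn2d, Cdkn2a, Cdkn2b and Cdkn1a had 0.197 to 0.462. The 6 genes of the upper tier were called higher in tumors 1 to 6 than in the controls with TMM scaling, as were 19.6% of all genes. With library totals 2 of them, Trp53inp1 and Cdkn1b, were still called, as were 4.32% of all genes. In TPM, Trp53 lay below every control in each of tumors 1 to 6, and the others of the upper tier overlapped the controls. How many of all genes lay below every control in TPM was not computed, here or for the TPM comparisons further down. Cdkn1a was the lowest of the 10 in median TPM and was not called higher under any of the scalings, filters or tools tried. None of the 10 was called in tumors 7 to 9, where 0.0247% of all genes were called higher and 0.0247% lower.

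The sequences that part the 2 products of Cdkn2a at their first exons are shown first, because the results for Ink4a and Arf rest in part on them. Cdkn2a (ENSMUSG00000044303) lies at chr4:89274471-89294653 on the minus strand of mm10. The transcript Cdkn2a-201 starts with exon 1 at chr4:89281986-89282192 (207 bases) and encodes Ink4a, and Cdkn2a-202 starts with exon 1 at chr4:89294334-89294653 (320 bases) and encodes Arf. Both continue into the same exon 2 at chr4:89276645-89276985 (341 bases), and most of exon 3 is shared as well. The lines below give 60 bases at the 3′ end of each first exon in lower case, then the first 30 bases of the shared exon 2 in capitals, read 5′ to 3′ along the transcript from the reference.
Ink4a: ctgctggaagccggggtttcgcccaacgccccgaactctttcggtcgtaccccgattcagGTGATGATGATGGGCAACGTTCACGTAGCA
Arf: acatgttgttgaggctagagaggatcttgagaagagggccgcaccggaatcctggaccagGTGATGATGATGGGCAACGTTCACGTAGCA
A read that lies wholly in the capitals or in another part shared by both transcripts fits both, and kallisto divides such reads by a model. Exon 3 has 304 bases in Cdkn2a-201 and 234 in Cdkn2a-202. A read that reaches into the longer 3′ end of Cdkn2a-201 fits Ink4a only, and the part of such reads was not tested.

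A second pair of sequences shows where a p53 response element stands near the start of a member. Promoter windows from RefSeq (GRCm38.p6) of 250 bases before to 50 bases after a start were at hand for 9 of the 10 genes, 12 windows in all, and held none for Trp53inp1. They were searched on both strands for the p53 response element, a pair of adjoining 10-base half-sites with no spacer, with its core C and G kept and at most 2 mismatches elsewhere. The element was found in 107 of 32851 such windows of all genes (0.326%) and in 2 of the 12, in 1 window of Cdkn1a and in that of Ccng1. Both matches have 1 mismatch, which 0.0670% of all windows reach or better. The Cdkn1a window is that of the upstream start, chr17:29090729-29091028 on the plus strand, with the element (in capitals) at chr17:29090928-29090947, beginning 51 bases before the start. The Ccng1 window is chr11:40755237-40755536 on the minus strand, with the element at chr11:40755462-40755481, beginning 195 bases before the start.
Cdkn1a: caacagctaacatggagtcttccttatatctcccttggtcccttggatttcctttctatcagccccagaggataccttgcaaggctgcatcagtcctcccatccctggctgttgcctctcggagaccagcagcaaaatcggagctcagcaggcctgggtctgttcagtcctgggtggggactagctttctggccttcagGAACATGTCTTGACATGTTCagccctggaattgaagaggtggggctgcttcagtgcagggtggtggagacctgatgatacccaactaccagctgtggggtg
Ccng1: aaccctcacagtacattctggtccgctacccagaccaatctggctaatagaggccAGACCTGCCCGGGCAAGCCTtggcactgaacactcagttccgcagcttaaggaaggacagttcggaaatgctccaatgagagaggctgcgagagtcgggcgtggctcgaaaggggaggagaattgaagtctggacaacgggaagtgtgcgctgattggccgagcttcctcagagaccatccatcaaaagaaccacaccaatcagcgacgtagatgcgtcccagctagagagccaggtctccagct
These 2 genes share the element and differ in their values. In CPM (counts scaled by library total times a TMM factor), Ccng1 lay above every control in each of tumors 1 to 6, as did 21.4% of all genes. Cdkn1a overlapped the controls in CPM. With library totals alone, edgeR gave Ccng1 a log2 fold change of 0.31 (adjusted p = 0.638) in tumors 1 to 6 against the controls. That of Cdkn1a was -2.92 (adjusted p = 8.13e-04), so where each gene stood against the controls rests on the scaling. With those totals the median of all genes was -3.69, and 74.7% of all genes were called lower and 4.32% higher. A match is a run of letters, and binding of p53 was not measured.

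The libraries differed in composition in a way that bears on every comparison with the controls. Genes of olfactory and vomeronasal receptors, not known to be used by thymocytes, served as a measure: their median density per kilobase was 0 to 0.355 CPM in tumors 1 to 6, against 0.616 to 0.636 CPM for controls and 0.531 to 0.683 CPM for tumors 7 to 9. This density times the exon length of a gene is called the background below, and a library's level divided by it gives the times-background values. The mitochondrial share of counts was 31.6% to 69.3% for tumors 1 to 6, 2.54% to 11.1% for tumors 7 to 9 and 0.0948% to 6.73% for controls. Il7r itself was at 2.51, 3.20 and 3.04 CPM in controls 1 to 3, at 33.2 to 512 CPM in tumors 1 to 6, and at 5.02, 5.49 and 5.60 CPM in tumors 7 to 9. The labelled tissue was weakly marked in the controls: the 10 T cell markers summed to 45.6 to 112 CPM there, where the background alone would give 31.5 to 32.6, and 5 of them exceeded it in all 3 controls. The same markers summed to 2039 to 2913 CPM in tumors 1 to 6 and to 67.0 to 156 CPM in tumors 7 to 9. Fewer cells of a type and less RNA per cell cannot be told apart in such bulk samples.

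**Figure D1:**
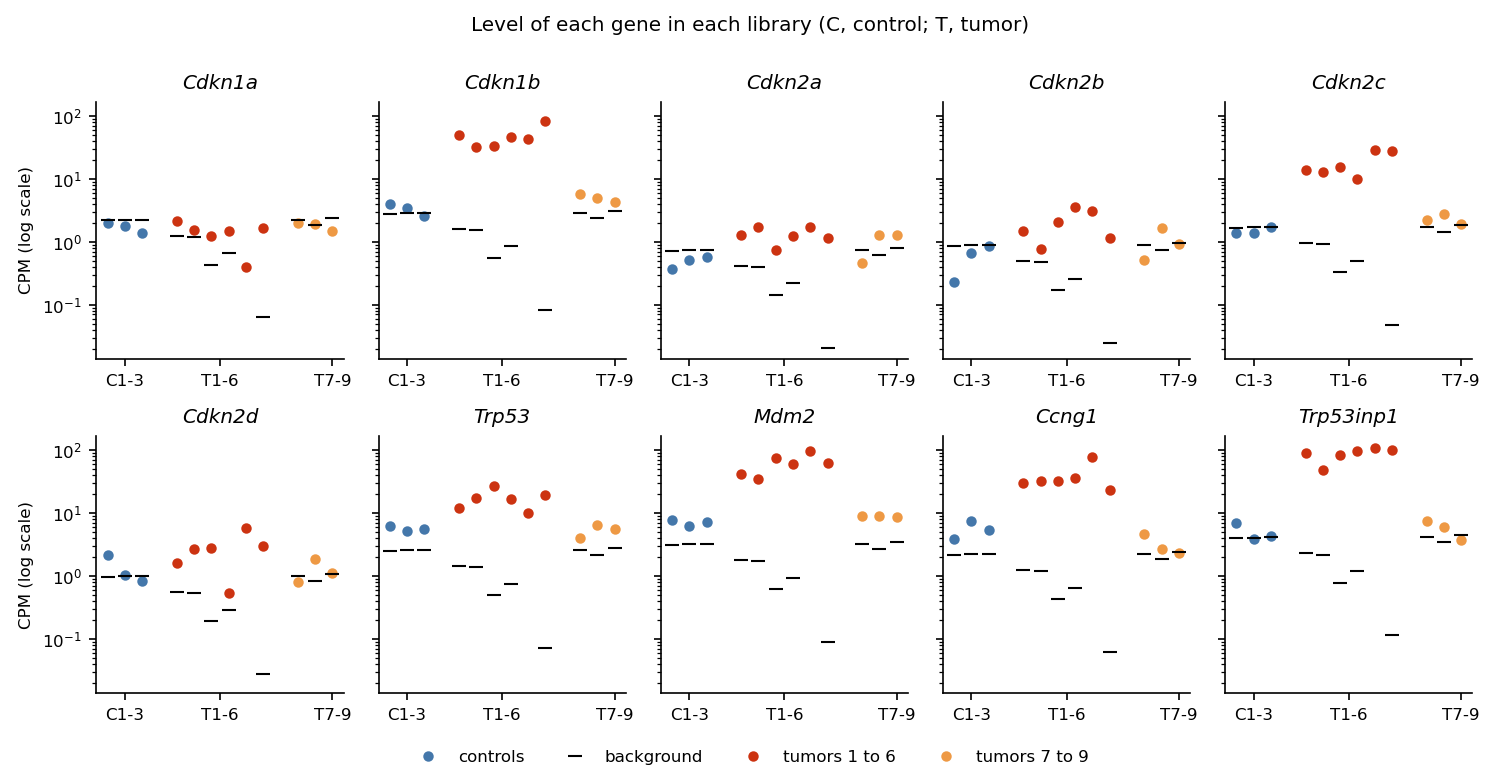
CPM of each of the 10 genes (log axis) in controls 1 to 3, tumors 1 to 6 and tumors 7 to 9, one dot per library in the order of its number, with a dash at the background of that gene in that library (no dash for tumor 5, whose background is 0). In tumors 1 to 6 the dots of Cdkn1b, Cdkn2c, Trp53, Mdm2, Ccng1 and Trp53inp1 stand clear of the dashes and of all controls, while the dots of Cdkn1a overlap those of the controls.

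Trp53 (ENSMUSG00000059552, chr11:69580359-69591873, plus strand) was at 6.29, 5.23 and 5.61 CPM in controls 1 to 3. Its lowest, median and highest levels in tumors 1 to 6 were 10.3, 17.2 and 26.8 CPM, with tumor 3 the highest and tumor 5 the lowest. Levels of 4.10, 6.59 and 5.59 CPM were found in tumors 7 to 9. In CPM every one of tumors 1 to 6 was above every control, while tumors 7 to 9 overlapped the controls. In TPM the order was reversed, with 1.47 to 4.15 in tumors 1 to 6 and 4.50 to 5.26 in the controls. Controls were at 2.04 to 2.53 times the background and tumors 7 to 9 at 1.59 to 3.07 times. A Trp53 pseudogene, Trp53-ps, drew at most 2 counts in any library.

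The transcripts that made up Trp53 differed between the sets of libraries, and such shares do not depend on how libraries are scaled. Trp53-205, a form of 3275 bases that the annotation lists as a processed transcript without a coding sequence, took 65.8% to 75.1% of the Trp53 counts of each control and 69.6% to 90.9% of those of tumors 7 to 9. Its share was 23.7% to 40.5% in tumors 1 to 6, below every other library. The share of Trp53-201 ran from 12.5% to 63.9% in tumors 1 to 6, from 6.00% to 9.59% among controls and from 3.13% to 24.3% among tumors 7 to 9. In tumors 3 and 4 alone among tumors 1 to 6 another form, Trp53-203, drew more than a trace of counts, up to 32.6% of the gene. Trp53 stood at only 2.04 to 2.53 times the background in controls and 1.59 to 3.07 times in tumors 7 to 9, so background reads can enter the shares there, and their part was not tested. These shares come from kallisto's division of reads among overlapping transcripts and were not tested.

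**Figure D2:**
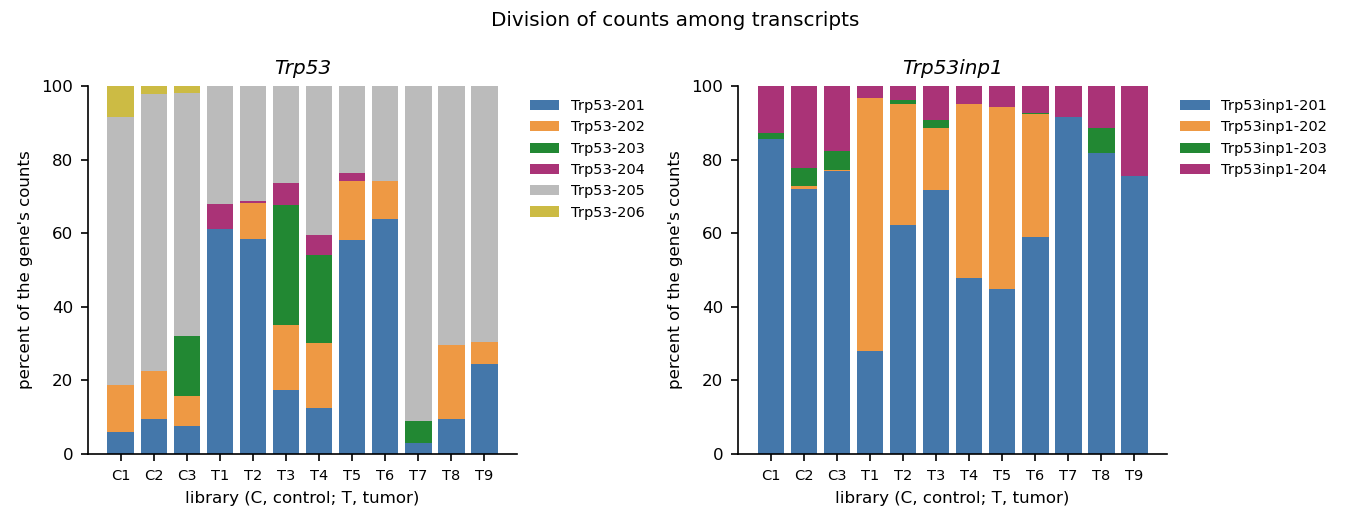
Percent of the counts of Trp53 (left) and Trp53inp1 (right) that kallisto gave to each transcript, one bar per library. Trp53-205 (gray) is the largest part of Trp53 in every control and in tumors 7 to 9, and Trp53inp1-202 (orange) takes 16.8% to 68.9% of Trp53inp1 in tumors 1 to 6 and under 1% elsewhere.

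Mdm2 (ENSMUSG00000020184, chr10:117688875-117710758, minus strand), the ubiquitin ligase that removes p53, was at 7.83, 6.32 and 7.16 CPM in controls 1 to 3. The lowest, median and highest of tumors 1 to 6 were 35.4, 61.3 and 97.4 CPM, the highest being tumor 5, where Trp53 was lowest. Levels in tumors 7 to 9 were 8.92, 9.16 and 8.67 CPM. In CPM all 9 tumors were above all 3 controls, by a wide gap in tumors 1 to 6 and a narrow one in tumors 7 to 9. TPM overlapped, at 2.57 to 14.4 (median 5.14) in tumors 1 to 6 and 7.37 to 7.91 in the controls. Among Mdm2 transcripts, Mdm2-209, which the annotation marks as a target of nonsense-mediated decay, took from 1.26% of the gene's counts in tumor 3 to 56.0% in tumor 5, where it held 1370 estimated counts. Among controls it took 18.8% to 40.0% and among tumors 7 to 9 19.4% to 45.4%, within the range of tumors 1 to 6.

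Ccng1 (ENSMUSG00000020326, chr11:40748552-40755311, minus strand) encodes cyclin G1, which recruits a phosphatase to Mdm2. Controls 1 to 3 had 3.84, 7.48 and 5.49 CPM of it, and tumors 7 to 9 had 4.61, 2.66 and 2.34 CPM. Values in tumors 1 to 6 were far higher in CPM, with a lowest, median and highest of 23.3, 32.7 and 79.4 CPM. Tumor 5, the highest, stood apart from the other 5, which reached 36.8 CPM at most. TPM overlapped, at 1.25 to 7.85 (median 1.72) in tumors 1 to 6 and 2.06 to 5.23 in the controls. A single transcript drew all counts of Ccng1 in every library.

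Trp53inp1 (ENSMUSG00000028211, chr4:11156431-11174379, plus strand) encodes a nuclear and autophagy protein that promotes p53-dependent cell death. Controls 1 to 3 had 7.05, 3.92 and 4.32 CPM, and tumors 7 to 9 had 7.44, 6.04 and 3.71 CPM, an overlapping range. Among tumors 1 to 6 the lowest, median and highest were 48.3, 93.9 and 111 CPM, all above every other library. TPM overlapped, at 1.77 to 9.27 (median 3.47) in tumors 1 to 6 and 3.64 to 3.73 in the controls. Its transcript Trp53inp1-202, a processed transcript of 5432 bases, held 115 to 1381 estimated counts in tumors 1 to 6. The same transcript held at most 0.659 in a control, and it was listed at 0 in tumors 7 to 9.

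Cdkn1a (ENSMUSG00000023067, chr17:29090976-29100727, plus strand), the inhibitor best known as a p53 target, showed no such rise. Its level was 2.02, 1.82 and 1.37 CPM in controls 1 to 3. Tumors 1 to 6 had a lowest, median and highest of 0.398, 1.53 and 2.14 CPM, from 10 to 26 counts each, and tumors 7 to 9 had 1.96, 1.90 and 1.51 CPM. The 3 sets of libraries overlapped in CPM, and tumor 5 was the lowest of all 12. In TPM tumors 1 to 6, at 0.0756 to 0.371, lay below every control, at 2.63 to 3.24. In the controls the level was 0.607 to 0.922 times the background, so no Cdkn1a signal stood out there. In tumors 1 to 4 it was 1.30 to 2.85 times the background, in tumor 6, with a background of near 0, 26.2 times, and in tumor 5 the background was 0. An exon of Cdkn1a overlaps AC167363.2 on the opposite strand, and the use of strand in counting is not given in the sources used here.

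Cdkn1b (ENSMUSG00000003031, chr6:134920401-134925513, plus strand), whose product p27 holds resting lymphocytes out of the cycle, had the highest median TPM of the 6 CDK inhibitors in tumors 1 to 6. Controls 1 to 3 had 4.07, 3.43 and 2.62 CPM, at 0.906 to 1.45 times the background. For tumors 1 to 6 the lowest, median and highest were 32.8, 45.0 and 84.7 CPM, with tumor 6 well above the rest. TPM overlapped, at 1.39 to 8.28 in tumors 1 to 6 and 1.33 to 2.06 in the controls. With 5.67, 5.05 and 4.38 CPM, tumors 7 to 9 were each above the highest control by a small margin.

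Cdkn2c (ENSMUSG00000028551, chr4:109660876-109667189, minus strand), which encodes the INK4 protein p18, was the other inhibitor with a clear signal. Its level was 1.39, 1.38 and 1.70 CPM in controls 1 to 3, or 0.810 to 0.992 times the background. The level in CPM rose to a lowest, median and highest of 10.1, 14.7 and 28.5 CPM in tumors 1 to 6, with tumors 5 and 6 nearly equal at the top. TPM overlapped, at 0.806 to 8.79 in tumors 1 to 6 and 2.05 to 2.36 in the controls. Tumors 7 to 9 had 2.19, 2.79 and 1.94 CPM, again just above the controls.

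Cdkn2d (ENSMUSG00000096472, chr9:21288410-21291407, minus strand), which encodes the INK4 protein p19, ranged from 0.545 CPM in tumor 4 to 5.89 CPM in tumor 5, with a median of 2.79 CPM over tumors 1 to 6. That range of 10.8 times was the widest of the 10 genes, and its low end rests on 4 counts. Controls 1 to 3 had 2.15, 1.05 and 0.848 CPM and tumors 7 to 9 had 0.808, 1.90 and 1.14 CPM, so all 3 sets overlapped in CPM. In TPM tumors 1 to 6, at 0.0681 to 1.55, lay below every control, at 2.15 to 3.47.

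Cdkn2b (ENSMUSG00000073802, chr4:89306299-89311039, minus strand), the neighbor of Cdkn2a that encodes the INK4 protein p15, was at 0.232, 0.654 and 0.848 CPM in controls 1 to 3. Tumors 1 to 6 had a lowest, median and highest of 0.782, 1.80 and 3.54 CPM, from 6 to 79 counts. Tumors 7 to 9 had 0.519, 1.69 and 0.937 CPM. Its lowest value among tumors 1 to 6, in tumor 2, lay within the controls, and the others lay above them.

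Cdkn2a was at 0.364, 0.508 and 0.565 CPM in controls 1 to 3, below the background at 0.504 to 0.758 times. Tumors 1 to 6 had 1.29, 1.69, 0.740, 1.23, 1.75 and 1.15 CPM, each above every control in CPM, from 6 to 44 counts. In TPM the same tumors, at 0.140 to 0.814, lay below every control, at 0.933 to 1.80. Tumors 7 to 9 had 0.461, 1.31 and 1.27 CPM, of which 2 lay in the range of tumors 1 to 6. No library of the 12 was without counts on the gene.

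By transcript, Ink4a held 12, 8.74, 6.00, 6.76, 13.2 and 4.61 estimated counts in tumors 1 to 6. The Arf transcript held 0, 4.26, 0, 2.24, 30.8 and 13.4 in the same tumors. Arf was thus the larger part in tumors 5 and 6, at 70.0% and 74.4% of the gene's counts, and the smaller part in tumors 1 to 4. Controls 1 to 3 had 6.93, 8.21 and 8.76 estimated counts on Ink4a and 4.07, 5.79 and 5.24 on Arf. Tumors 7 to 9 had 6.44, 8.09 and 19.5 on Ink4a and 1.56, 22.9 and 18.5 on Arf. A listing at 0 allows up to 3 counts by counting error, and with so few reads across the junctions printed above the division in any single tumor is uncertain. Such a limit covers counting error only, because reads lacking molecular identifiers can be copies of one molecule.

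**Figure D3:**
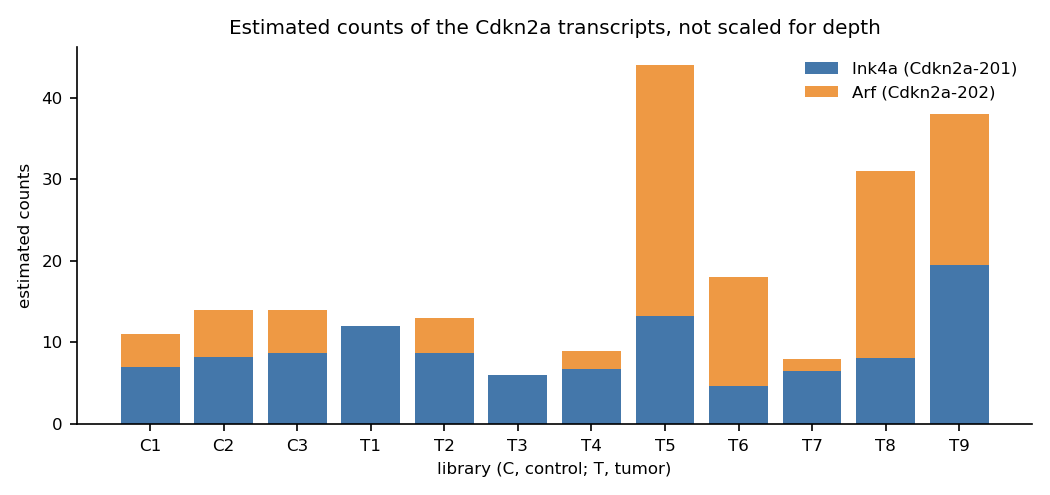
Estimated counts of Cdkn2a-201 (Ink4a, blue) and Cdkn2a-202 (Arf, orange) stacked by library, not scaled for depth. Arf is listed at 0 in tumors 1 and 3 and reaches its highest value of 30.8 in tumor 5.

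The genes around Cdkn2a and Cdkn2b on chromosome 4 gave a local comparison. Mtap, a metabolic gene next to Cdkn2a that is often deleted with it in human cancer, was at 31.9 to 65.1 CPM in tumors 1 to 6 and 2.32 to 3.03 CPM in the controls. Klhl9, an adaptor of a ubiquitin ligase, was at 18.8 to 38.3 CPM and 2.78 to 3.13 CPM in the same order. Dmrta1, a transcription factor gene, was at 0.532 to 3.39 CPM in tumors 1 to 6 and 3.16 to 4.33 CPM in the controls. Ifne, an interferon gene of epithelia, was at 0 to 0.261 CPM and 0.265 to 0.606 CPM. Mtap and Cdkn2a both had counts in every tumor, and RNA counts do not give copy number.

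Neighbors in the order of the 10 genes in tumors 1 to 6 were compared within each library on TPM, which accounts for transcript length. That order was set by the median TPM of the same 6 tumors, so the p-values below do not test an order fixed beforehand. Median TPM was 5.14 for Mdm2, 3.47 for Trp53inp1, 2.54 for Cdkn1b, 2.09 for Cdkn2c, 2.07 for Trp53 and 1.72 for Ccng1. After a gap it was 0.462 for Cdkn2d, 0.388 for Cdkn2a, 0.311 for Cdkn2b and 0.197 for Cdkn1a. Tumor 5 or 6 had the highest TPM for each gene, and these 2 tumors also had the second lowest and lowest mitochondrial shares of the 6, 41.3% and 31.6%, whose part was not tested. Ccng1 exceeded Cdkn2d in 6 of 6 tumors, by a mean of 2.02 in log2(TPM + 0.1), and Trp53inp1 exceeded Cdkn1b in 6 of 6, by 0.53. Both pairs reached p = 0.03125 in a two-sided exact sign-flip permutation test over 64 sign patterns, the smallest p that 6 tumors allow, and 0.141 after Benjamini-Hochberg adjustment over 9 neighboring pairs. The other 7 pairs of neighbors had exact permutation p from 0.0625 to 0.969, so no 2 neighbors in this order differed past the threshold. With 6 tumors a pair can pass after adjustment only if at least 6 of the 9 pairs reach the smallest p.

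**Figure D4:**
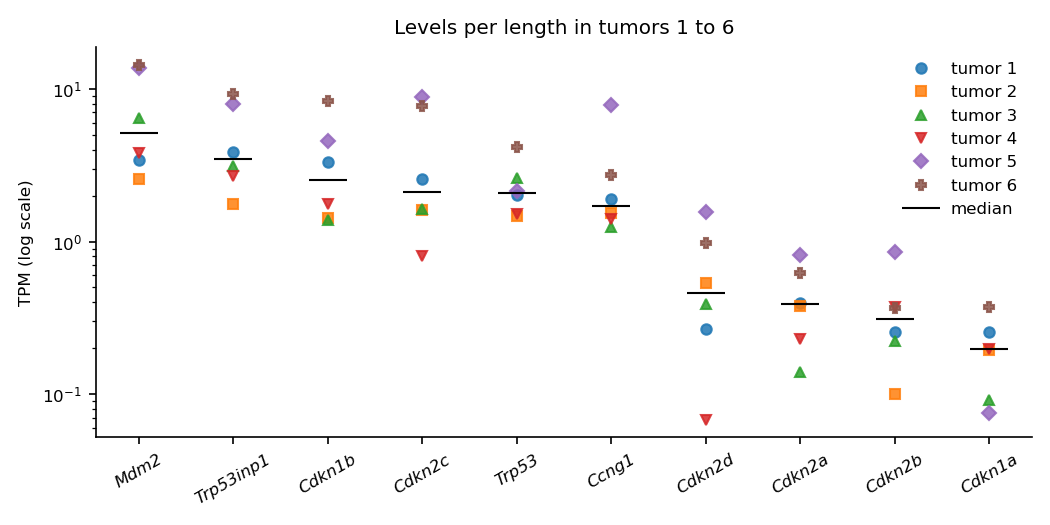
TPM (log axis) of the 10 genes in tumors 1 to 6, ordered by their median (black dash), with one symbol per tumor. The 6 genes at the left have medians of 1.72 or more and the 4 at the right have medians of 0.462 or less, and the highest value is that of tumor 5 or tumor 6 for each of the 10 genes.

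Against the controls, tumors 1 to 6 had 6 of the 10 genes higher and 0 lower by edgeR's quasi-likelihood test with Benjamini-Hochberg adjustment over 38567 genes. Of all genes tested 19.6% were higher and 20.3% lower. The number lower, 7825, rests on the controls and the scaling: it was 3191, 2539 and 2788 without control 1, 2 or 3, and 28805 (74.7%) with library totals. Levels in CPM of 7 members lay above every control without overlap, the 6 called genes and Cdkn2a, as did 21.4% of all genes, and none lay below every control, as did 27.4%. In TPM the levels of Trp53, Cdkn2a, Cdkn2d and Cdkn1a lay below every control, and those of the other members overlapped the controls. The shares of all genes in TPM were not computed. Trp53inp1 had a log2 fold change of 3.86 with a standard error (SE) of 0.45 and an adjusted p of 3.49e-05, and Cdkn1b one of 3.60 with an SE of 0.47 and an adjusted p of 7.04e-05. Cdkn2c rose by 3.37 (SE 0.53, adjusted p = 2.60e-04), Mdm2 by 2.87 (SE 0.44, adjusted p = 2.31e-04) and Ccng1 by 2.54 (SE 0.51, adjusted p = 0.00163) on the log2 scale. Trp53 had the least of the called changes, 1.27 with an SE of 0.34 and an adjusted p of 0.00976. The log2 fold changes that did not pass were 1.51 for Cdkn2b (adjusted p = 0.117), 1.16 for Cdkn2a (0.190), 0.85 for Cdkn2d (0.315) and -0.62 for Cdkn1a (0.384).

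These fold changes have to be read against a moving reference. The median log2 fold change was -1.29 over all genes tested, 2.03 over the 10 members, 3.79 over 89 ribosomal protein genes, of which 82 were higher, and -2.13 over 1403 receptor genes, of which 697 were lower. In a fit of only the 10590 genes with a mean of at least 5 CPM, with TMM factors from those genes, the median was 0.15. Every member but Trp53inp1 lay between the median of the receptor genes and that of the ribosomal protein genes. With library totals in place of TMM factors the median of all genes was -3.69, 4.32% of genes were higher and 74.7% lower, and among the members only Trp53inp1 (1.68, adjusted p = 0.0116) and Cdkn1b (1.47, adjusted p = 0.0352) were still called higher. With those totals Cdkn2c was at 1.27 (adjusted p = 0.0944), Mdm2 at 0.70 (0.267), Ccng1 at 0.31 (0.638) and Trp53 at -0.98 (0.0704), and Cdkn1a was called lower at -2.92 (8.13e-04). The call of Trp53 was also lost without control 2 (adjusted p = 0.0584), without control 3 (0.0531), with protein-coding genes only (0.45, adjusted p = 0.183) and with a minimum mean of 5 CPM (-0.42, adjusted p = 0.204), where Ccng1 was lost too (0.82, adjusted p = 0.116). The difference between tumors 1 to 6 and the controls cannot be told apart from the difference in background between these libraries.

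**Figure D5:**
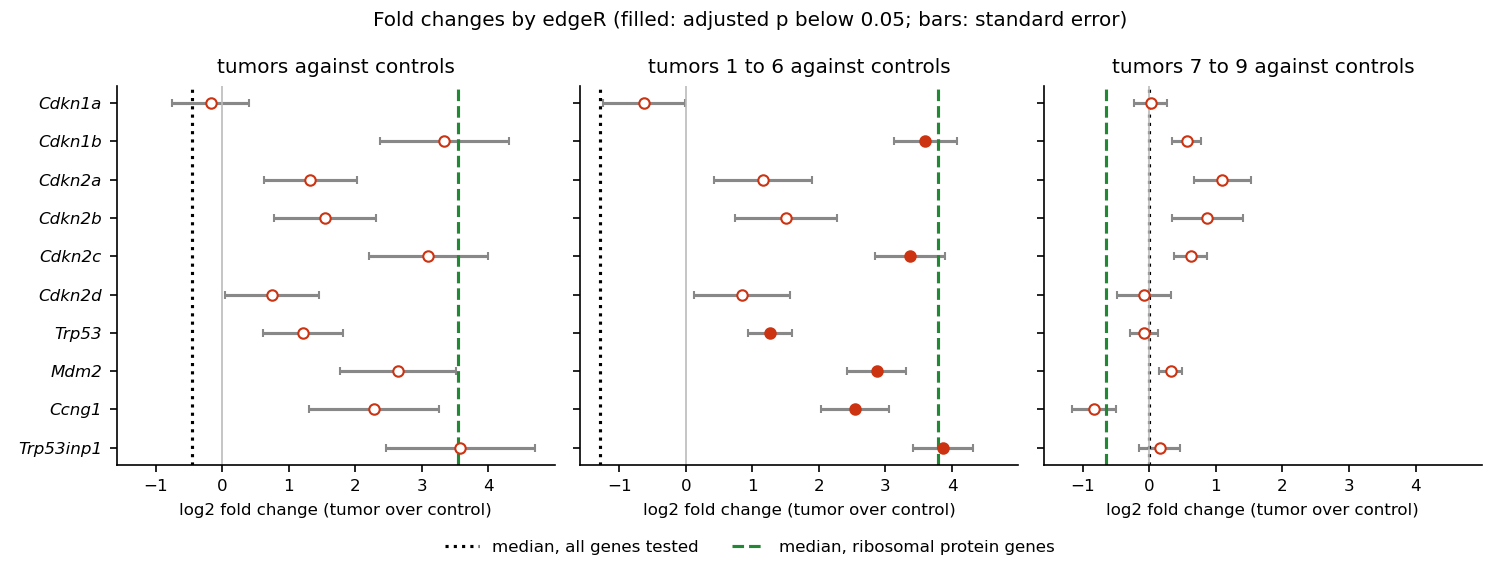
Log2 fold change (tumor over control) of each gene with its standard error in the 3 comparisons by edgeR with TMM factors. Filled dots are past an adjusted p of 0.05, the dotted line is the median of all genes tested and the dashed line the median of ribosomal protein genes. The 6 filled dots are all in the comparison of tumors 1 to 6, where Trp53inp1 alone lies to the right of the dashed line at 3.79.

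In all 9 tumors against the controls, 0 of the 10 genes passed by edgeR in either direction. Of 40521 genes, 0 were higher (0%) and 2 were lower (0.00494%), although 6856 were higher and 445 lower at an unadjusted p below 0.05. DESeq2 called 4 members higher, namely Trp53inp1 (3.10, adjusted p = 0.00299), Cdkn1b (2.84, adjusted p = 0.00249), Cdkn2c (2.65, adjusted p = 0.00547) and Mdm2 (2.19, adjusted p = 0.0131) on the log2 scale, as it did 21.2% of the 19300 genes to which it gave an adjusted p, and limma with voom called 0 members. Levels of 3 members, Cdkn1b, Cdkn2c and Mdm2, lay above every control in all 9 tumors, as did 1.64% of all genes, and 0 lay below every control, as did 3.11%. In the edgeR fit the 4 that DESeq2 called had log2 fold changes of 3.58, 3.34, 3.10 and 2.64 and an adjusted p of 0.128 each.

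In tumors 7 to 9 against the controls, whose backgrounds overlap, 0 of the 10 genes passed by edgeR, as 9 genes higher and 9 lower did among 36449 (0.0247% each). DESeq2 and limma with voom also called 0 members. At an unadjusted p below 0.05, 1891 genes were higher and 1404 lower, and among the members Cdkn2a had a log2 fold change of 1.10 (SE 0.43, unadjusted p = 0.0292, adjusted p = 0.504 by edgeR). Those of Cdkn2c, Cdkn1b and Ccng1 were 0.62 (SE 0.24, adjusted p = 0.509), 0.56 (SE 0.22, adjusted p = 0.501) and -0.83 (SE 0.33, adjusted p = 0.517). The other 6 lay between -0.08 and 0.87. Cdkn1b, Cdkn2c and Mdm2 were above every control in all 3 tumors, as were 7.48% of all genes, and no member was below every control, as were 7.2%. With library totals Cdkn1b was at -0.17, Cdkn2c at -0.11 and Mdm2 at -0.38, so even the direction of these small differences rests on the scaling.

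Of 38 other genes that p53 is known to induce, 18 were higher in tumors 1 to 6 and 2 were lower than in the controls, with a median log2 fold change of 1.54 beside -1.29 for all genes. With the same TMM scaling 19.6% of all genes were higher and 20.3% lower, shares that stand beside the TMM counts of every list below. The 4 with the highest mean level in tumors 1 to 6 were Def6, an adaptor of T cell receptor signaling (27.5 to 95.2 CPM), Btg2, an antiproliferative gene (28.3 to 113 CPM), Ckap2, a spindle protein gene (27.7 to 63.7 CPM), and Ddit4, an inhibitor of mTOR signaling (12.2 to 55.7 CPM), all below 5 CPM in each control. With library totals 3 of the 38 were higher and 16 lower, where 4.32% of all genes were higher and 74.7% lower, shares that also stand beside the other list counts with library totals given next. Regulators of p53, with its relatives Trp63 and Trp73, had 17 of 22 higher and 2 lower, with a median of 2.76. Among them Npm1, which tethers Arf in the nucleolus, was at 491 to 1127 CPM, the ligase gene Huwe1 at 456 to 1108, the acetyltransferase gene Crebbp at 104 to 344, and Usp7, whose product deubiquitinates Mdm2, at 151 to 255. With library totals 6 of these 22 were higher and 4 lower.

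Of 16 partners of the CDK inhibitors (kinases, cyclins, pocket proteins and the E2F factors that these bind), 14 were higher in tumors 1 to 6 and 0 lower, beside 19.6% and 20.3% of all genes. Their median log2 fold change was 2.92. Cdk6, a kinase that INK4 proteins inhibit, was at 143 to 500 CPM in tumors 1 to 6 and 13.2 to 16.9 CPM in the controls. Cdk4 was at 54.8 to 93.1 CPM, and the pocket protein genes Rb1 and Rbl1 at 32.4 to 142 and 31.6 to 92.3 CPM. With library totals 3 of the 16 were higher, Cdk6 and Rb1 among them, and 1 lower. In a list of 11 genes, those that control or degrade p27 were 10, and all 10 were higher. The other, Cdkn1c, which encodes the related inhibitor p57, had a log2 fold change of -0.065 (adjusted p = 0.930 by edgeR), and the median of the 11 was 2.66. Jun, a transcription factor gene, ran from 1.48 to 481 CPM over tumors 1 to 6 and overlapped the controls, while the ligase subunits Cul1 (81.9 to 147 CPM) and Skp1a (46.6 to 131 CPM) and the kinase gene Akt1 (32.4 to 93.3 CPM) did not. With library totals 4 of the 11 were higher and 1, Cdkn1c, was lower.

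Regulators of the Cdkn2a locus had 11 of 18 higher and 0 lower, beside 19.6% and 20.3% of all genes, with a median of 2.11. The 4 most abundant in tumors 1 to 6 were Ets1, an activator of Ink4a, at 194 to 414 CPM, Ezh2, the Polycomb methyltransferase that represses the locus, at 113 to 275, Dmtf1, an activator of Arf, at 64.4 to 149, and Myc, which induces Arf, at 48.1 to 160. With library totals 6 of the 18 were higher and 7 lower. In all 9 tumors and in tumors 7 to 9, edgeR called 0 genes of these lists and of the marker lists in either direction.

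The marker counts for tumors 1 to 6 with TMM stand beside 19.6% of all genes higher and 20.3% lower. Of 8 markers of dividing cells 8 were higher in tumors 1 to 6, led by Mki67 (1347 to 4133 CPM) and Top2a (355 to 1035 CPM), and their sum was 2005 to 5797 CPM against 61.1 to 90.2 for controls and 42.8 to 156 for tumors 7 to 9. T cell markers, led by Ptprc and Tcf7, had 10 of 10 higher. Fibroblast markers had 2 higher and 1 lower of 8, with a median log2 fold change of -0.57. Led by Col1a2 and Pdgfrb, the 2 that were higher, they summed to 55.4 to 277 CPM in tumors 1 to 6, 47.7 to 52.8 for controls and 61.1 to 65.2 for tumors 7 to 9. Macrophage markers, 2 higher of 8 and led by Lyz2 and Csf1r, summed to 19.0 to 172, 12.5 to 16.8 and 13.9 to 14.4 CPM in the same order. Endothelial markers, 1 higher and 2 lower of 6, summed to 178 to 1151, 35.1 to 79.5 and 85.6 to 152 CPM. Pecam1, which leukocytes also express, made up nearly all of the sum in tumors 1 to 6. It was at 175 to 1150 CPM there, 11.7 to 58.6 CPM in controls and 60.8 to 129 CPM in tumors 7 to 9. Thymic epithelial markers had 1 higher and 2 lower of 8, with a median log2 fold change of -1.02. Led by Ccl25, the 1 that was higher, and Ly75, they summed to 39.9 to 72.5, 32.2 to 39.7 and 36.3 to 40.0 CPM. B cell markers, 0 higher and 2 lower of 8 and led by Ebf1 and Ms4a1, summed to 6.79 to 29.4, 36.1 to 42.9 and 39.4 to 53.4 CPM. Erythroid markers, 0 higher and 1 lower of 7 and led by Alas2 and Hbb-bs, summed to 2.66 to 11.5, 4.83 to 14.5 and 3.81 to 4.61 CPM. With library totals, dividing-cell markers had 5 of 8 higher, T cell markers 8 of 10, macrophage markers 1 higher and 4 lower of 8, and endothelial markers 1 higher and 5 lower of 6. With those totals 0 were higher in the fibroblast, thymic epithelial, B cell and erythroid lists, and 6 of 8, 7 of 8, 8 of 8 and 6 of 7 were lower. No marker list had a gene at 0 in all libraries of a group, and the part of these cells in the levels of the members was not tested.

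Whether p53-induced members rose and fell together was examined over tumors 1 to 6 on log2(CPM + 1). Cdkn1a and Ccng1 had Pearson's r of -0.89 (two-sided exact permutation p = 0.0444) and Spearman's rho of -0.77 (p = 0.103), and r was -0.46 without the 2 tumors farthest from the median of Cdkn1a. Cdkn1a and Mdm2 had r of -0.79 (exact permutation p = 0.0431) and rho of -0.71 (p = 0.136), and r was -0.53 without those 2 tumors. Mdm2 and Trp53inp1 had r of 0.74 (exact permutation p = 0.0667) and rho of 0.66 (p = 0.175), and r was -0.13 without the 2 farthest tumors. After adjustment over 11 relations the smallest p was 0.244 for r and 0.642 for rho, so 0 of 11 passed. Without tumor 5 alone, r of Cdkn1a with Ccng1 was -0.27, and r of Trp53 with Mdm2 moved from -0.04 to 0.72. The relations of Trp53 with its induced genes ran from -0.64 with Ccng1 to 0.34 with Cdkn1a.

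Over 9516 protein-coding genes with a mean of at least 5 CPM there, the median standard deviation of log2(CPM + 1) was 0.51. The 6 members of that abundance had 0.42 for Trp53inp1, 0.46 for Trp53, 0.49 for Cdkn1b, 0.53 for Mdm2, 0.58 for Cdkn2c and 0.59 for Ccng1, which lie from the 33.4th to the 63.0th percentile of those genes. Among the same 9516 genes the 3 whose pattern over the 6 tumors was most like that of Cdkn1a were Mroh2a (r = 0.996), Unc93b1 (r = 0.991) and Zfp446 (r = 0.985). With 10 to 26 counts of Cdkn1a per tumor, and so many genes ranked over 6 tumors that share depth and background differences, this likeness is a description only.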

How the data were processed

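Polyadenylated RNA of 12 mouse thymus libraries was sequenced from both ends (75 bases), as the labels' protocols state. The authors deposited estimated counts and TPM (transcript counts scaled by length and to one sum per library) for each transcript, per the file headers. Software named in the submitters' processing notes is FastQC and kallisto, with the build mm10. Versions and the annotation release: not given in the sources used here. Coordinates came from GENCODE M21 of GRCm38 (mm10), which held 51633 of 51826 genes by identifier.

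Estimated counts were summed by gene identifier and rounded. Totals were 8133152 to 12019924 in the controls and 11617724 to 34769946 in the tumors. CPM was the count scaled by the library total times a trimmed mean of M-values (TMM) factor, computed over 12 libraries. In these units 1 count stood for 0.0331 to 0.136 CPM. Tumors were compared with controls by edgeR 4.0.16 (quasi-likelihood, filterByExpr, Benjamini-Hochberg adjusted p below 0.05), with DESeq2 1.42.0 and limma 3.58.1 as alternatives. Exact permutation tests were two-sided, over 64 sign patterns or 720 pairings, with pseudocounts of 0.1 TPM or 1 CPM. The fits were also run on simulated counts with known changes in a small set of genes. Both groups there had the same mean profile otherwise, so that check does not cover the difference in composition between the libraries. The other alternatives were RLE factors, library totals, filters, protein-coding genes only, each library left out, the replicate number as a block, and log2 of the receptor median plus 0.1 as a covariate. That offset was chosen after seeing the data, because the median was 0 in tumor 5.

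The members and gene lists were chosen with earlier results of these data known. The lists were other p53-induced genes, p53 regulators, regulators and neighbors of the Cdkn2a locus, partners of the inhibitors, control of Cdkn1b, and markers of 8 cell types or states. Named were all members and neighbors, Il7r, the 4 genes of each other pathway list and the 2 of each marker list with the highest mean CPM in tumors 1 to 6, and the 3 genes most like Cdkn1a. No 2 libraries agreed within sampling noise, so each was counted once. Ahsp of the erythroid list was not matched in the files.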

Additional observations from a re-analysis of the deposited data

Results flagged for a closer look

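In 3 of the 10 genes a single tumor stood far from the others of its set by Dixon's test, which chance flags in about 1 in 20 groups, and 2 sets of tumors were examined for each gene. Ccng1 was at 79.4 CPM in tumor 5, against at most 36.8 CPM elsewhere, with a gap of 0.760 of the range among tumors 1 to 6 and 0.553 of the range among all 9 tumors. Cdkn2d was at 5.89 CPM in tumor 5, with a gap of 0.543 of the range among the 9 tumors. Cdkn1b was at 84.7 CPM in tumor 6, with a gap of 0.655 of the range among tumors 1 to 6. Tumor 5 had the largest total of all libraries, 34769946 estimated counts, and a receptor median of 0. Tumor 6 had the lowest mitochondrial share of tumors 1 to 6, 31.6%. The part of these differences in the 3 values was not tested.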

How the results depend on the processing

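The comparisons with the controls depend on scaling. The median log2 fold change of all genes was -1.29 with TMM, -1.58 with RLE and -3.69 with library totals for tumors 1 to 6, -0.45, -0.72 and -1.82 for all tumors, and -0.01, 0.01 and -0.70 for tumors 7 to 9. Among genes kept by a minimum mean of 5 CPM it was 0.15 for tumors 1 to 6, 0.17 for all tumors and -0.01 for tumors 7 to 9.

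For tumors 1 to 6, library totals gave 1667 genes higher and 28805 lower, with 2 members higher and 1 lower, and turned Cdkn2a to -1.08, Cdkn2b to -0.80, Cdkn2d to -1.23 and Trp53 to -0.98. A minimum mean of 5 CPM gave 3439 higher and 3409 lower, with Trp53 at -0.42. Genes lower numbered 12530 with RLE factors, 13358 with DESeq2 and 15759 with voom, and 2539 to 11371 with a library left out, the low counts of 3191, 2539 and 2788 being those without control 1, 2 or 3. Members higher stayed at 5 or 6 of 10 with a library left out, while 6128 to 7845 of all genes were higher in the same fits.

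For all tumors, genes higher and lower numbered 4084 and 53 with DESeq2, 8 and 9 with voom, and 8377 and 2310 with the replicate block. Genes higher numbered 4 with the background covariate, genes lower 0 with a minimum of 5 CPM, and 0 to 3 with a library left out. Members higher numbered 4 with DESeq2 and 6 with the replicate block. Library totals turned Cdkn2a to -0.35, Cdkn2b to -0.41, Cdkn2d to -1.02, Trp53 to -0.89 and Ccng1 to -0.11. The covariate turned Cdkn1a to 0.16 and Cdkn2d to -0.13, and the 5 CPM minimum turned Trp53 to -0.10.

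For tumors 7 to 9, genes higher and lower numbered 66 and 296 with library totals, 1 and 0 with a minimum of 5 CPM, 291 and 80 with DESeq2, and 1 to 249 and 0 to 39 with a library left out, the highest without control 3 and control 1. Library totals turned Cdkn1a to -0.72, Cdkn1b to -0.17, Cdkn2c to -0.11, Mdm2 to -0.38 and Trp53inp1 to -0.65. With a library left out Cdkn1a ran from -0.11 to 0.14, Cdkn2d from -0.45 to 0.42, Trp53 from -0.23 to 0.068 and Trp53inp1 from -0.091 to 0.45.

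In the order of levels, CPM per kilobase turned Mdm2 over Trp53inp1 to -0.20 and Cdkn2a over Cdkn2b to -0.24, and a pseudocount of 1 turned Cdkn1b over Cdkn2c to -0.014. With a tumor left out Cdkn1b over Cdkn2c ran from -0.17 to 0.22, Cdkn2c over Trp53 from -0.030 to 0.54 and Trp53 over Ccng1 from -0.22 to 0.34. Of the relations, Cdkn2a with Cdkn1a had r of 0.051 on CPM outside mitochondrial genes. With a tumor left out r ran from -0.31 to 0.62 for Ccng1 with Trp53inp1, -0.62 to 0.12 for Cdkn1a with Trp53inp1, -0.66 to 0.50 for Cdkn2a with Cdkn1a, -0.17 to 0.73 for Mdm2 with Ccng1, -0.92 to 0.71 for Trp53 with Cdkn1a and -0.42 to 0.72 for Trp53 with Mdm2. With 5 tumors the exact sign-flip permutation test cannot go below p = 0.0625, so leaving out a tumor gives values for the pairs and no test. The median count of Ink4a in tumors 1 to 6 was 7.75, and that of the whole gene 12.5. Where a value changed, the cause was not tested.

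Numbers 1 to 3 occur in both groups, but same-numbered libraries deviated together with r of 0.02, 0.12 and -0.02, so the samples share only a number, and not every library correlated best with its own. In the fit of all 12 libraries the block leaves tumors 4 to 9, which have no control of their number, without weight in the fold change. In tumors 1 to 6 the block left 6 members higher, in a fit where tumors 4 to 6 likewise have no weight in the fold change. Over this and the other alternatives that kept every library, 1667 to 7547 of all genes were higher.

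Depth limits Cdkn1a, Cdkn2a, Cdkn2b and Cdkn2d, which had as few as 10, 6, 6 and 4 counts in a tumor.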
